A study of Mus musculus with 20 samples.

Results

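Fatty acid elongases and desaturases were described by 10 genes, Elovl1, Elovl2, Elovl3, Elovl5, Elovl6, Elovl7, Scd1, Scd2, Fads1 and Fads2, which were read by 12 of the 41174 non-control probes of a mouse Agilent array. Probes were taken by gene name or by accession, and each gene is given by its brightest probe. Elovl5 and Elovl7 had a second, dimmer probe, which is given as a second reading. The 20 arrays held RNA of liver and of white adipose tissue (WAT) from male C57BL/6 mice, 7 months old, after 21 weeks on a high-fat diet (HFD, 35% fat). There were 5 wild type (WT) and 5 CD44KO arrays for each tissue. CD44KO mice lack Cd44, a cell surface receptor for hyaluronan, as a constitutive deletion, and had been backcrossed to C57BL/6J. All 4 groups were on the HFD, and arrays of mice on normal chow were not analysed here. The question is whether loss of CD44 changed these enzymes in either tissue, and which of them marks which tissue.

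Elongases of the ELOVL family carry out the first and rate-limiting condensation step that adds a pair of carbons to an acyl-CoA in the endoplasmic reticulum, and they differ in the chain length and saturation they accept. Elovl1, Elovl3, Elovl6 and Elovl7 act on saturated and monounsaturated chains, and Elovl6 turns palmitate into stearate. Elovl2 and Elovl5 act on polyunsaturated chains. Desaturases insert double bonds: Scd1 and Scd2 make oleate and palmitoleate from saturated chains, while Fads1 and Fads2 act in the synthesis of arachidonate, eicosapentaenoate and docosahexaenoate. In liver, many of these genes are targets of the transcription factors SREBP-1c, LXR, ChREBP and PPAR-alpha.

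All values are log2 of the processed signal minus the array's 75th percentile, so 0 is the brightness of the 75th percentile spot. Values of different genes cannot be ranked against each other, because each probe has its own affinity. Cd44 itself was lower in CD44KO by 4.21 in liver and by 4.57 in WAT on the log2 scale, with no overlap in either tissue, so all 20 arrays matched their genotype labels. Hepatocyte markers had a summed signal of 1446 to 2093 times the 75th percentile in liver and of 1.72 to 38.8 times in WAT. The sum of adipocyte markers was 390 to 971 times in WAT and 8.70 to 32.3 times in liver. Of the 8 adipocyte markers only Lep, an adipocyte hormone, was not well above background on any liver array. Fabp4 and Cfd were well above background on all 5 liver arrays of each genotype. Liver and WAT arrays lay on different slides and were scanned separately. The share of spots well above background was 89.5% on the array of WT WAT replicate 1 and ran from 57.4% to 69.5% on the other arrays. That array correlated with the other 4 WT WAT arrays at r = 0.859 to 0.875 over probes, against 0.962 to 0.986 among those 4. WAT values of the 10 genes are therefore also given without it.

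The Scd genes lie together on chromosome 19, with the Scd2 probe at chr19:44200407-44200466 on the plus strand and the Scd1 probe at chr19:44288770-44288829 on the minus strand (mouse build mm7, as in the files). Fads1 (chr19:9876165-9876224, plus strand) and Fads2 (chr19:9744385-9744815, minus strand, a probe drawn across a wider stretch than its length) form a second pair on that chromosome, which also holds Elovl3 (chr19:46031906-46031965). The remaining elongase probes were at chr4:117808859-117808918 for Elovl1, chr13:40622319-40622378 for Elovl2, chr9:78025742-78025801 for Elovl5, chr3:129477684-129477743 for Elovl6 and chr13:105412670-105412729 for Elovl7. The dimmer probes of Elovl5 and Elovl7 were 605 and 738 bases away from the brighter ones. Their place within exons or untranslated regions was not analysed here, since no annotation of that build was used.

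RefSeq promoter sequences (GRCm38.p6) were matched for 6 of the 10 genes. The 250 bases before the start are printed for Elovl7, the gene that passed the test in liver, and for Elovl5 and Elovl6, which varied together across liver arrays. Capitals mark matches, on either strand, to CACGTG, the E-box that SREBP and ChREBP family factors can read, to CCAAT, the NF-Y box, and to GGGCGG, the Sp1 box.
Elovl7 (chr13:108214154-108214403, plus strand): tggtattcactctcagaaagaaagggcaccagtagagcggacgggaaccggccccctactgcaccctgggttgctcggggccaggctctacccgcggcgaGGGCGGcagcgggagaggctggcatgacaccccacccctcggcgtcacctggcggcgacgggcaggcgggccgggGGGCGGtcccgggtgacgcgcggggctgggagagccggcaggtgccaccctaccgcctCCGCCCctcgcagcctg
Elovl5 (chr9:77917115-77917364, plus strand): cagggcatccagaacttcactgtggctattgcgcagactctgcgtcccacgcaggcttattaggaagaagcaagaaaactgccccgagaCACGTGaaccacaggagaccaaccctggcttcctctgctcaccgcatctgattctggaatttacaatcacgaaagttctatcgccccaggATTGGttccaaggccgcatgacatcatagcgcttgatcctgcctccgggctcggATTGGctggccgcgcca
Elovl6 (chr3:129532136-129532385, plus strand): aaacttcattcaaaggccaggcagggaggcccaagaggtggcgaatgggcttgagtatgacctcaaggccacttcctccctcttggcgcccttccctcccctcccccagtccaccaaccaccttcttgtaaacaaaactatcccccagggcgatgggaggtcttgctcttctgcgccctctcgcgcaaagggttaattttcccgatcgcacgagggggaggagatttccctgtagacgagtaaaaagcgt
The Elovl5 window held 1 match to CACGTG and 2 to CCAAT, the Elovl7 window held 3 to GGGCGG, and none of the 3 motifs was in the Elovl6 window. Matches did not overlap each other in these 3 windows. Among 32817 promoters of the same length, 6.02% held CACGTG, 33.8% held CCAAT and 32.7% held GGGCGG. A match is a run of letters and was not tested as a binding site.

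In liver, Elovl7 was measured lower in CD44KO mice. It was the only one of the 10 genes whose brightest probe passed the test (adjusted p under 0.05), against a background of 13.6% of the 24689 probes tested (5.75% lower and 7.85% higher in CD44KO). That probe entered the test through its WT arrays alone, and it did not pass with normexp background correction. 8 of the 10 genes had a lower mean in CD44KO liver, where 38.7% of all probes did, and the median log2 change of the 10 was -0.33, against 0.08 over all probes. 4 of the 10 had an unadjusted p under 0.05, against 32.2% of all probes, and none of the 10 had groups that did not overlap, against 11.7%. Elovl2 and Elovl3 had higher means. The shares of 1 of 10 called and of 4 of 10 at an unadjusted p are therefore near the background.

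**Figure D1:**
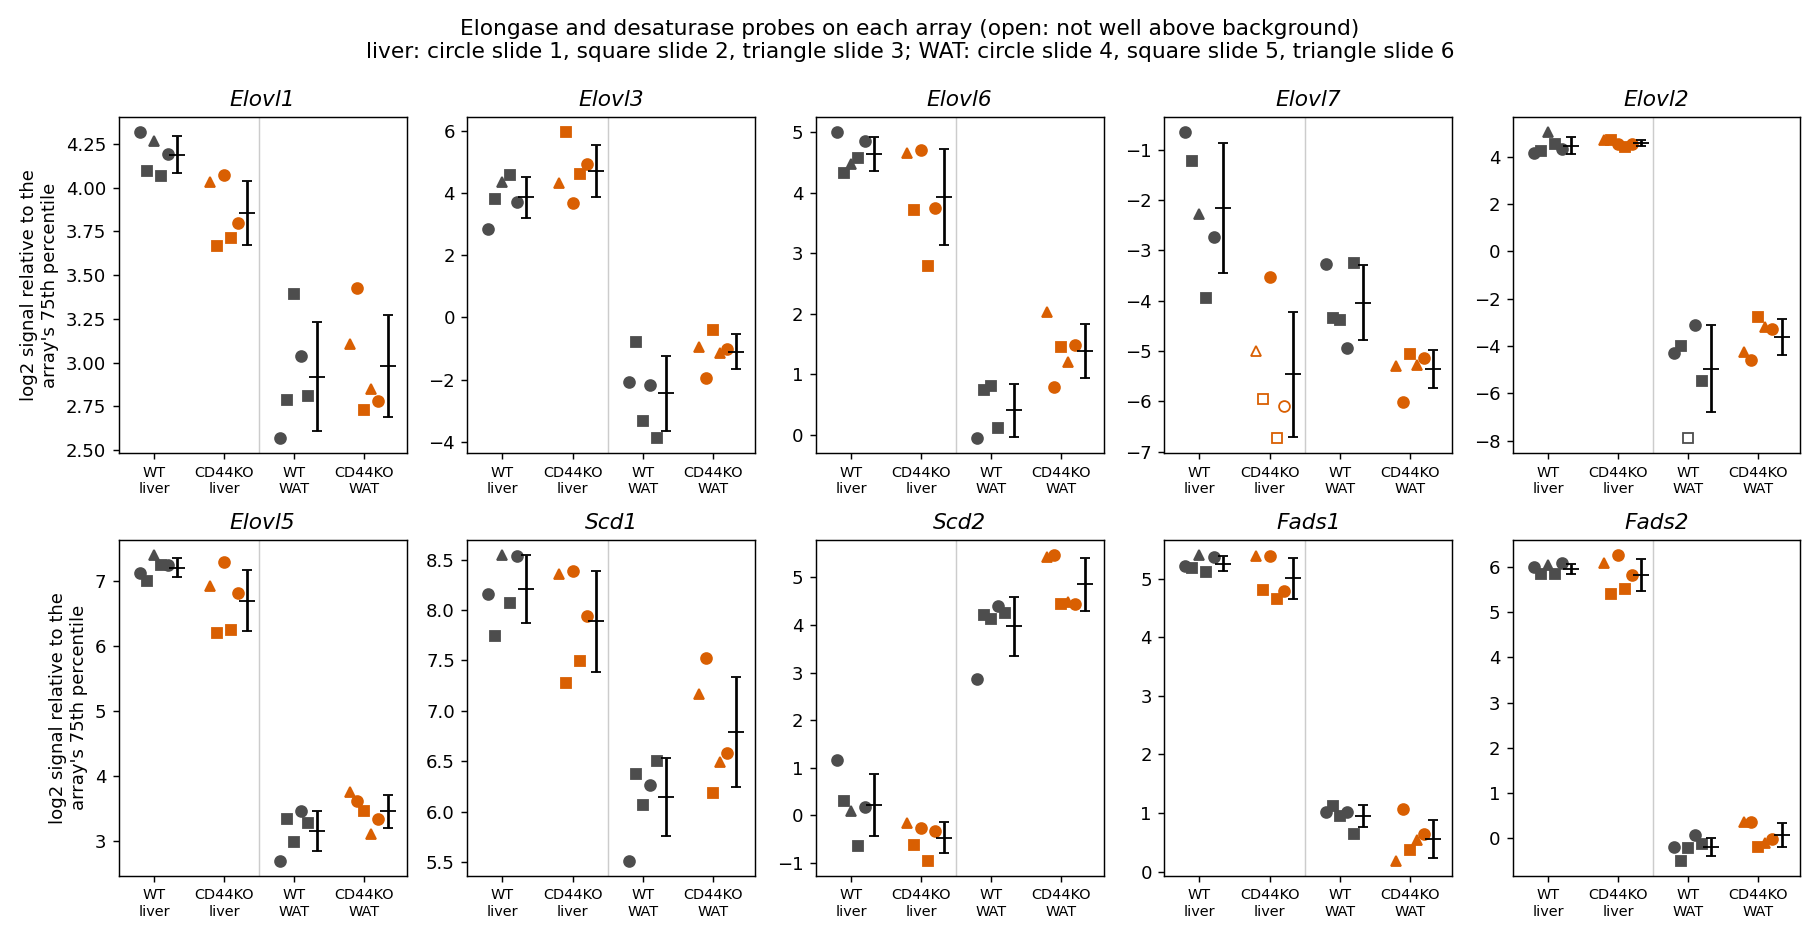
Log2 signal relative to the array's 75th percentile (y axis) of the brightest probe of each gene on every array, by group (x axis); dark points are WT, orange points CD44KO, the point shape gives the slide, open points are not well above background, and bars give the mean and SD. Elovl7 lies at -3.94 to -0.65 in WT liver and at -6.72 to -3.53 in CD44KO liver, and Scd2 is the gene with brighter signal in WAT than in liver.

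Elovl7, an elongase of saturated very-long chains, read -0.65, -1.22, -2.28, -3.94 and -2.73 on the WT liver arrays and -5.01, -5.96, -3.53, -6.72 and -6.10 on the CD44KO liver arrays (replicates 1 to 5). All 5 CD44KO values lay below the WT mean, but CD44KO replicate 3 was above WT replicate 4, so the groups overlapped at that 1 pair. The mean was -2.16 ± 1.29 (SD, n = 5) in WT and -5.46 ± 1.24 (SD, n = 5) in CD44KO, a log2 change of -3.30 (SE 0.71), or 9.85-fold (limma, adjusted p = 0.0202; 2-sided exact permutation test, p = 0.0159). The spot was well above background on 5 of 5 WT arrays and on 1 of 5 CD44KO arrays. The probe thus met the filter for testing through WT alone, and the fold rests largely on signals near background. With normexp background correction the change was -1.06 (adjusted p = 0.203), and without WT replicate 2 it was -3.06 (adjusted p = 0.0532). The difference was -3.13, -3.76 and -2.72 within liver slides 1, 2 and 3.

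The dimmer Elovl7 probe gave -2.20, -2.49, -4.14, -4.28 and -4.03 in WT liver and -6.79, -5.58, -4.89, -5.37 and -5.28 in CD44KO liver. These groups did not overlap. The CD44KO spots were not well above background on any array and the WT spots were on 4 of 5, so this probe also met the filter through WT alone. The measured log2 change was -2.15 (SE 0.49, limma, adjusted p = 0.0235). With CD44KO values raised to the lowest well above background value of their array, this probe was 2.62-fold lower in CD44KO. That fold depends on the background correction and is not a guaranteed minimum. Normexp correction gave -0.28 (adjusted p = 0.603) for it.

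Among the other elongases of saturated chains, Elovl1, which makes very-long-chain fatty acids for sphingolipids, gave 4.32, 4.10, 4.27, 4.07 and 4.19 in WT liver and 4.03, 3.67, 4.07, 3.71 and 3.80 in CD44KO liver. The groups met only at their edge, with CD44KO replicate 3 level with WT replicate 4. The log2 change was -0.33 (SE 0.10), with all 5 CD44KO values below the WT mean, and missed the threshold (adjusted p = 0.0515; exact permutation p = 0.0159). It passed with the slide as a block (adjusted p = 0.0247), and the difference was -0.32, -0.39 and -0.24 within the 3 slides. Of 8 alternative settings 3 passed, with adjusted p up to 0.353 in limma. Of the 10 fits that left out an array 2 passed, with adjusted p up to 0.114.

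Elovl6, the elongase between palmitate and stearate, read 5.00, 4.32, 4.48, 4.57 and 4.86 in WT liver and 4.66, 3.72, 4.71, 2.78 and 3.76 in CD44KO liver. CD44KO replicates 1 and 3 lay within the WT range and the other 3 below it. The log2 change of -0.72 (SE 0.34, 95% interval -1.47 to 0.03) did not pass (adjusted p = 0.170), and the difference within the slides was -0.70, -1.19 and 0.18. Elovl3, an elongase whose liver level follows the clock and androgens, ran from 2.86 to 4.59 in WT and from 3.69 to 5.97 in CD44KO liver, with a log2 change of 0.84 (SE 0.43, adjusted p = 0.206).

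Of the elongases of polyunsaturated chains, Elovl5 gave 7.12, 7.00, 7.40, 7.24 and 7.25 in WT liver and 6.93, 6.20, 7.29, 6.25 and 6.81 in CD44KO liver. Only CD44KO replicate 3 reached the WT values. The change was -0.51 (SE 0.20, adjusted p = 0.113; exact permutation p = 0.0476) by the brighter probe. By the dimmer probe, which ran from 5.84 to 6.62 in WT and from 5.04 to 5.92 in CD44KO, it was -0.77 (SE 0.19, adjusted p = 0.0300), so that the 2 probes of Elovl5 lay on different sides of the threshold. The dimmer probe passed in 2 of the 10 fits that left out an array (adjusted p up to 0.0708) and missed the threshold with no filter on dim probes and in the fit of all 20 arrays (adjusted p up to 0.0741). Without CD44KO replicate 3 the brighter probe passed as well, with a change of -0.66 (adjusted p = 0.0277). Elovl2, which makes the long precursors of docosahexaenoate, ran from 4.15 to 5.04 in WT and from 4.41 to 4.71 in CD44KO, a change of 0.11 (SE 0.16, 95% interval -0.24 to 0.46, adjusted p = 0.668).

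None of the 4 desaturases passed the test in liver. Scd1, the main desaturase of liver, gave 8.16, 7.74, 8.54, 8.07 and 8.53 in WT and 8.35, 7.27, 8.39, 7.50 and 7.94 in CD44KO. The 2 groups overlapped through most of their range, and the change was -0.32 (SE 0.24, 95% interval -0.86 to 0.23, adjusted p = 0.401). Scd2, an isoform with its main expression outside the adult liver, ran from -0.64 to 1.16 in WT and from -0.95 to -0.16 in CD44KO liver. All 5 CD44KO values were below the WT mean, yet only CD44KO replicate 4 lay below WT replicate 4, and the change of -0.68 (SE 0.29) did not pass (adjusted p = 0.133). Of the 10 fits that left out an array 1 passed, that without WT replicate 4, with a change of -0.90 (adjusted p = 0.0369). Without WT replicate 1 the change was -0.45, and the adjusted p ran up to 0.259. Fads1 and Fads2, which act in turn on polyunsaturated chains, changed by -0.25 (95% interval -0.60 to 0.10, adjusted p = 0.298) and -0.14 (95% interval -0.49 to 0.22, adjusted p = 0.586).

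**Figure D2:**
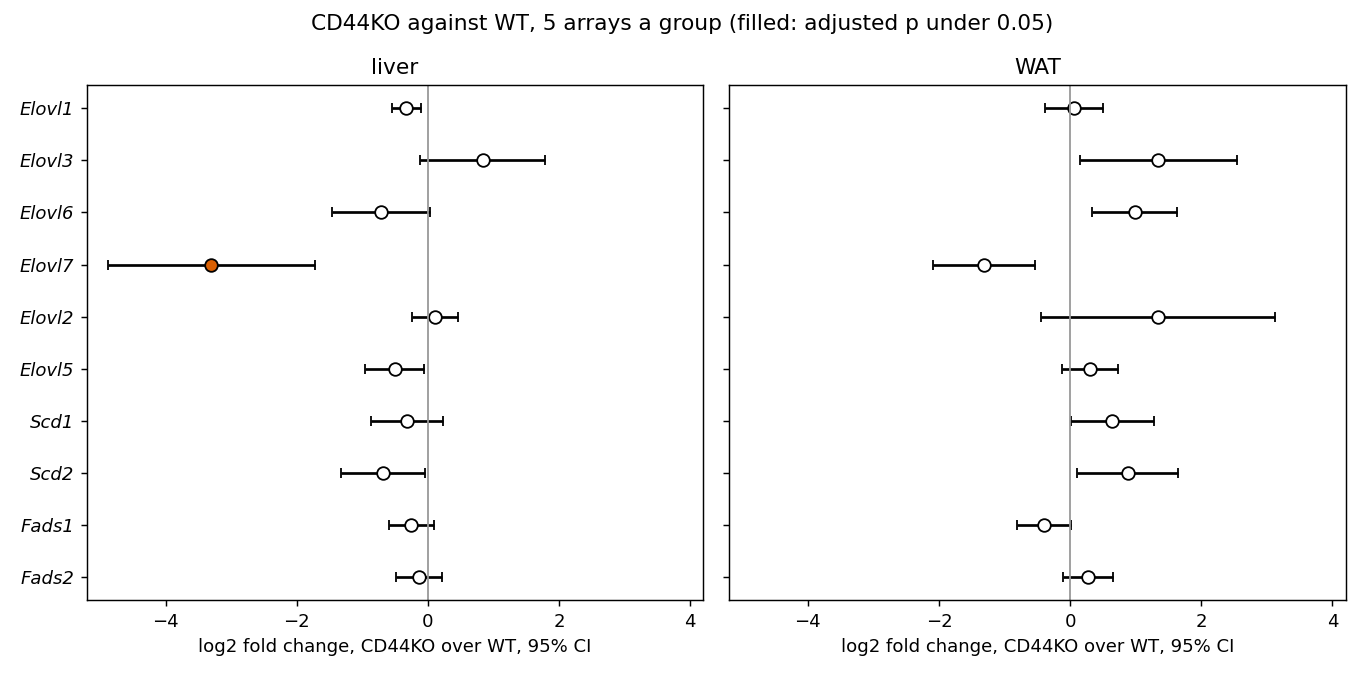
Log2 fold change of CD44KO over WT (x axis) with its 95% confidence interval for each gene (y axis), in liver (left) and in WAT (right), 5 arrays a group except 4 WT WAT arrays for Elovl6; filled points passed an adjusted p of 0.05. Elovl7 in liver, at -3.30, is the filled point.

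Scd1, Fads1, Fads2 and several elongases varied together between liver arrays. Taking each array's deviation from its group mean over the 10 liver arrays, r was 0.94 between Elovl5 and Fads2, 0.93 between Scd1 and Fads2 and 0.85 between Elovl6 and Fads1. Over the 45 pairs of genes the median r was 0.52, from -0.76 to 0.94, and 35 were above 0. Over the 10 WAT arrays the median r was 0.042, from -0.70 to 0.91, and 25 were above 0. In liver Elovl3 ran the other way, with r of -0.76 to Elovl1 and -0.70 to Fads2. Scd2 followed the other desaturases less closely, with r of 0.29 to Scd1, 0.39 to Fads1 and 0.45 to Fads2, but 0.81 to Elovl7. CD44KO replicates 2 and 4, both on slide 2, were the lowest 2 arrays for Elovl1, Elovl5, Scd1 and Fads2. The slide 2 mean was lower than those of slides 1 and 3 for Scd1 (7.64 against 8.25 and 8.45) and for Elovl5 (6.67 against 7.12 and 7.16). Those 2 low arrays are themselves part of the slide 2 mean. Over WT arrays alone, slide 2 was at 7.90 for Scd1, against 8.34 and 8.54 on slides 1 and 3. For Elovl5 it was at 7.12, against 7.18 and 7.40. The part of the slide in these levels was not tested. Of the lipogenic genes, Elovl6 followed Fasn (fatty acid synthase) and Acaca (acetyl-CoA carboxylase), each with r = 0.94. These were the highest r values to Elovl6 among the lipogenic genes and regulators compared. For the genes of SREBP-1c (Srebf1), ChREBP (Mlxipl) and LXR-alpha (Nr1h3), r to Elovl6 was 0.022, -0.16 and -0.33.

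**Figure D3:**
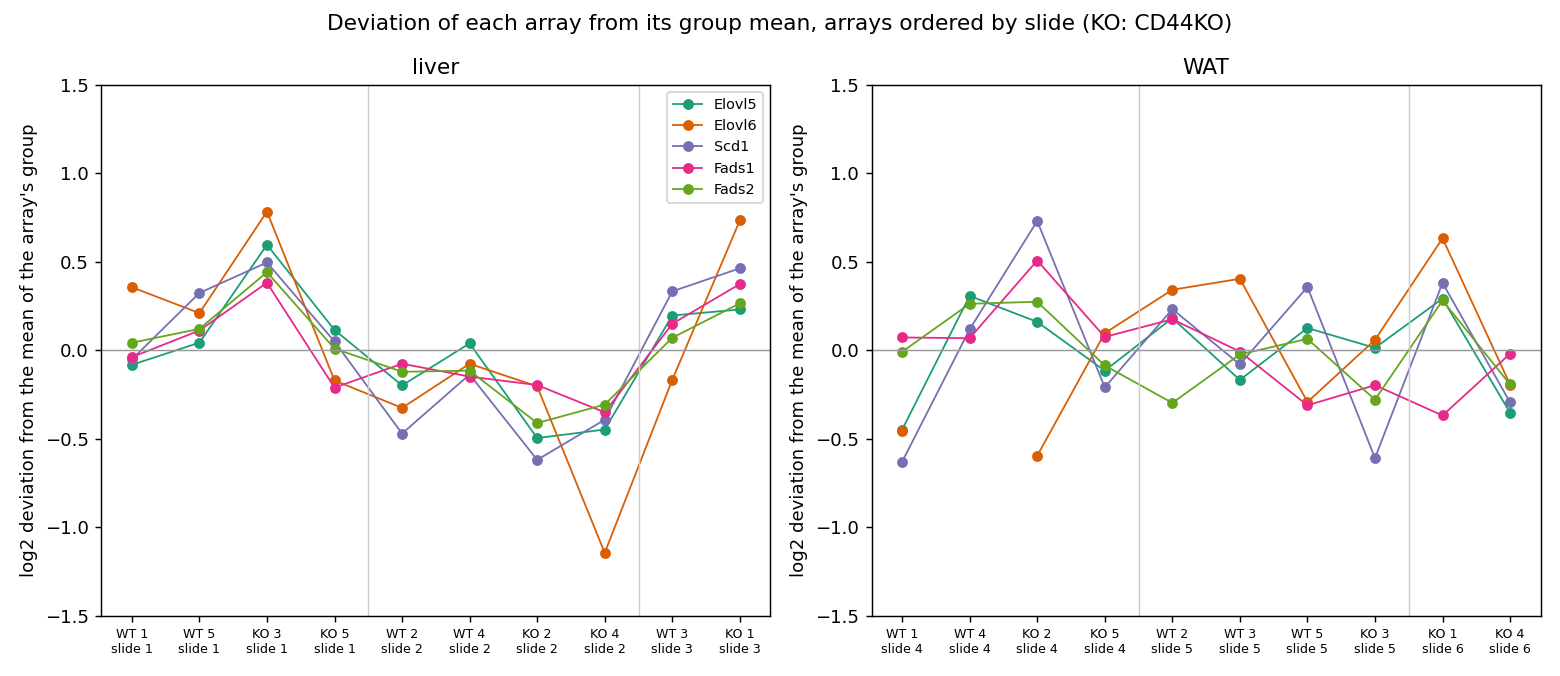
Deviation of each array's log2 signal from its group mean (y axis) for Elovl5, Elovl6, Scd1, Fads1 and Fads2, arrays ordered by slide (x axis), in liver (left) and WAT (right); the WT WAT replicate 4 spot of Elovl6 was an outlier and is not drawn. In liver the 5 lines are all above 0 on CD44KO replicates 1 and 3 and all below 0 on CD44KO replicates 2 and 4.

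The genes around these enzymes in liver did not move one way. Of 8 genes of fatty acid synthesis 7 had lower means in CD44KO liver (median -0.54), where 38.7% of all probes did, and none passed the test. Fasn changed by -0.42 (SE 0.36, adjusted p = 0.449). At an unadjusted p under 0.05 in limma there were 3 of the 8, against 32.2% of all probes. Of 12 regulators 2 passed the test, both as higher in CD44KO, where 13.6% of all probes passed in either direction and 7.85% as higher. Srebf1, the gene of SREBP-1c, rose by 0.55 (SE 0.16, adjusted p = 0.0448) and Scap, its escort protein, by 0.58 (SE 0.09, adjusted p = 0.00952). Mlxipl, the gene of ChREBP, and Nr1h3, the gene of LXR-alpha, changed by 0.25 (adjusted p = 0.289) and 0.18 (adjusted p = 0.253). The call of Srebf1 held in 2 of the 10 fits that left out an array, with adjusted p from 0.0211 to 0.104. Among 9 acyl-CoA synthetases and enzymes of peroxisomal chain shortening, Acsl1 rose by 0.59 (SE 0.14, adjusted p = 0.0284), a call that held in 4 of the 10 such fits (adjusted p from 0.0176 to 0.0707). None of 6 tested partners of the elongation cycle passed, and none of 6 tested desaturase relatives and electron donors did. At an unadjusted p under 0.05 there were 2 of those 6 partners and 0 of those 6 relatives, against 32.2% of all probes.

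Markers of other cells moved in the same liver arrays. 5 of 7 stellate cell and fibroblast markers and 4 of 6 T cell markers passed the test as lower in CD44KO liver, against 5.75% of all probes. The summed fibroblast signal was 101 to 156 times the 75th percentile in WT and 64.2 to 98.9 in CD44KO. The T cell sum was 1.57 to 2.78 against 1.29 to 1.82. Of 7 tested macrophage markers 5 had lower means, 2 had higher ones and 1 passed, as lower, with sums of 63.7 to 126 against 47.9 to 133. All 3 tested erythroid markers had higher means, none past the threshold but 2 at an unadjusted p under 0.05 in limma, against 32.2% of all probes. 7 of 7 hepatocyte markers had higher means, none past the threshold but 5 at an unadjusted p under 0.05 in limma, against the same 32.2%. Their sums were 1446 to 1909 in WT and 1798 to 2093 in CD44KO. In whole tissue, fewer cells of a type and less RNA per cell cannot be told apart, and the part of these cells in the Elovl7 result was not tested.

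In WAT none of the 10 genes passed the test in limma, against a background of 0.0398% (11 of 27653 probes). 8 of the 10 had higher means in CD44KO WAT, where 55.3% of all probes had lower ones, and the median log2 change was 0.48, against -0.06 over all probes. 5 of the 10 had an unadjusted p under 0.05, against 14.9% of all probes, and 2, Elovl7 and Scd2, had groups that did not overlap, against 6.18%.

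Elovl7 read -3.28, -4.34, -4.39, -4.94 and -3.25 in WT WAT and -5.30, -6.01, -5.06, -5.28 and -5.13 in CD44KO WAT. Each CD44KO array was below every WT array. The log2 change was -1.32 (SE 0.35, adjusted p = 0.189; exact permutation p = 0.00794, the smallest that 5 against 5 arrays can give), and -1.13 (adjusted p = 0.170) without WT replicate 1. Within slides 4 and 5 it was -1.47 and -1.07, and the dimmer probe gave -1.41 (adjusted p = 0.265). With quantile normalization the change was -0.34 (adjusted p = 0.806) by the brighter probe and -0.47 (adjusted p = 0.624) by the dimmer one.

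Scd2, the isoform that was brighter in WAT than in liver, gave 2.87, 4.22, 4.12, 4.39 and 4.26 in WT WAT and 5.43, 5.47, 4.44, 4.48 and 4.43 in CD44KO WAT. The groups did not overlap, but the gap between WT replicate 4 and the lowest CD44KO array was small, and WT replicate 1 was far below the others. The change was 0.88 (SE 0.35, adjusted p = 0.288; exact permutation p = 0.00794), and 0.60 (adjusted p = 0.323) without WT replicate 1. Within slides 4 and 5 it was 1.32 and 0.24. Scd1 ran from 5.51 to 6.50 in WT and from 6.18 to 7.52 in CD44KO WAT. Its change of 0.65 (SE 0.29, adjusted p = 0.331) was 1.16 on slide 4 and -0.13 on slide 5, and 0.49 without WT replicate 1.

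Elovl6 gave -0.05, 0.74, 0.81 and 0.11 on WT replicates 1, 2, 3 and 5 and 2.02, 0.79, 1.45, 1.19 and 1.48 in CD44KO WAT. The spot of WT replicate 4 was marked as an outlier by the scanner software and was left out. Only CD44KO replicate 2 fell within the WT range. The change was 0.99 (SE 0.29, adjusted p = 0.208; exact permutation p = 0.0238), 1.31 (adjusted p = 0.206) with the outlier spot kept and 0.83 (adjusted p = 0.235) without WT replicate 1.

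Elovl3, which also marks brown adipocytes, ran from -3.88 to -0.77 in WT and from -1.94 to -0.41 in CD44KO WAT, a change of 1.35 (SE 0.54, adjusted p = 0.295). Of 5 brown adipocyte markers other than Elovl3 and Cidea none passed the test, 3 had higher means, and their median change was 0.05. Their summed signal was 3.12 to 4.31 times the 75th percentile in WT and 4.32 to 7.30 in CD44KO WAT, so the groups nearly touched. Cox7a1 and Cox8b were the brightest of the 5 and weigh most in that sum. Cox7a1, a muscle and brown fat subunit of cytochrome c oxidase, changed by 0.68 (limma, adjusted p = 0.192) without overlap, as 6.18% of all probes did. Cox8b changed by 0.57 (adjusted p = 0.381). Dio2 changed by 0.05 (adjusted p = 0.895). Ppargc1a and Ucp1 had lower means in CD44KO, with changes of -0.14 (adjusted p = 0.855) and -0.51 (adjusted p = 0.694). The part of brown adipocytes in the Elovl3 value was not tested. Elovl2 was at -7.88 to -3.12 in WT and -4.58 to -2.76 in CD44KO WAT (change 1.34, SE 0.80, adjusted p = 0.443). The change was 0.61 without WT replicate 3, whose spot was not well above background, and ran from 0.50 with normexp correction to 2.06 with quantile normalization. The summed hepatocyte marker signal ran from 1.72 to 27.5 and from 6.56 to 38.8 in the same groups. The part of hepatocyte RNA in the Elovl2 and Elovl3 signals of WAT was not tested. Elovl1 (0.06, 95% interval -0.39 to 0.50), Elovl5 (0.30, -0.12 to 0.73), Fads1 (-0.39, -0.81 to 0.02) and Fads2 (0.27, -0.10 to 0.65) had adjusted p-values of 0.891, 0.460, 0.351 and 0.458. The sign for Elovl1 turned to -0.029 without WT replicate 1, to -0.054 without CD44KO replicate 2 and to -0.12 with quantile normalization. Without WT replicate 1 the other changes were 1.51 (adjusted p = 0.432) for Elovl2, 1.44 (adjusted p = 0.287) for Elovl3, 0.19 (adjusted p = 0.621) for Elovl5, -0.38 (adjusted p = 0.400) for Fads1 and 0.27 (adjusted p = 0.499) for Fads2.

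In WAT 8 of 8 genes of fatty acid synthesis and 11 of 12 regulators had higher means in CD44KO, with medians of 0.61 and 0.25, and none passed the test. At an unadjusted p under 0.05 there were 5 of the 8 and 2 of the 12, against 14.9% of all probes, so the count of regulators was near the background. Fasn changed by 0.96 (SE 0.27, adjusted p = 0.198) and Mlxipl by 0.94 (SE 0.29, adjusted p = 0.217), both without overlap of the groups. In all, 2 of the 8 and 2 of the 12 had no overlap, against 6.18% of all probes. Srebf1 changed by 0.33 (adjusted p = 0.515), Nr1h3 by 0.18 (adjusted p = 0.664), Scap by 0.12 (adjusted p = 0.716) and Acsl1 by 0.43 (adjusted p = 0.373). Nr1h3 and Scap turned to -0.010 and -0.072 with quantile normalization. Without WT replicate 1 the changes were 0.76 (adjusted p = 0.166) for Fasn, 0.72 (adjusted p = 0.201) for Mlxipl, 0.18 for Srebf1, 0.28 for Acsl1, 0.061 for Scap and 0.022 for Nr1h3.

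All 8 adipocyte markers had higher means in CD44KO WAT as well, none past the threshold and 3 at an unadjusted p under 0.05, against 14.9% of all probes. Their summed signal was 390 to 638 times the 75th percentile in WT and 539 to 971 in CD44KO. 7 of 8 macrophage markers, 6 of 6 T cell markers and 6 of 6 mesothelial markers had lower means, with sums of 300 to 426 against 309 to 398, 0.69 to 6.30 against 0.39 to 1.03 and 2.31 to 11.4 against 1.04 to 3.49. Of these 2, 2 and 5 had an unadjusted p under 0.05, against the same 14.9%, and none passed the test. In erythroid markers the sum was 56.7 to 225 against 158 to 489. The part of these cells in the WAT values of Scd1, Scd2, Elovl6 and Elovl7 was not tested.

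The genotype effect was then compared between the tissues. The effect in liver minus that in WAT was below 0 for 9 of the 10 genes, Fads1 being the exception at 0.14, and none passed the interaction test in limma, against 1.15% of 28988 probes. At an unadjusted p under 0.05 there were 5 of the 10, against 15.8% of all probes. 6 of the 10, namely Elovl1, Elovl5, Elovl6, Scd1, Scd2 and Fads2, had a lower mean in CD44KO liver and a higher one in CD44KO WAT, as 16.2% of the probes tested in both tissues had; the WAT sign of Elovl1 was not stable to leaving out an array or to quantile normalization. The difference was -1.71 (SE 0.47, adjusted p = 0.0815) for Elovl6, -1.56 (SE 0.47, adjusted p = 0.107) for Scd2 and -0.81 (SE 0.28, adjusted p = 0.160) for Elovl5, with -1.20 (adjusted p = 0.0604) by the dimmer Elovl5 probe. For Scd2 all 5 CD44KO livers were below the WT liver mean and all 5 CD44KO WAT arrays above the WT WAT mean. Elovl7 had the difference -1.98 (SE 0.84, adjusted p = 0.257), with lower means in CD44KO in both tissues. That difference was -0.079 (adjusted p = 0.924) with normexp correction and -3.22 (adjusted p = 0.168) with quantile normalization, and -0.74 (adjusted p = 0.650) by the dimmer probe. Elovl6 passed with normexp correction (-1.81, adjusted p = 0.0449) and without CD44KO liver replicate 3 (-1.90, adjusted p = 0.042). Without WT WAT replicate 1 none of the 10 passed, and the difference was -1.55 (adjusted p = 0.112) for Elovl6, -1.29 (adjusted p = 0.119) for Scd2, -0.70 (adjusted p = 0.195) for Elovl5, -0.81 (adjusted p = 0.293) for Scd1 and -2.17 (adjusted p = 0.204) for Elovl7.

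In WT mice each of the 10 probes differed between liver and WAT, against a background of 70.5% of probes, and 9 of the 10 were brighter in liver, where 36.2% of all probes were. Tissue, slide and scan cannot be told apart here. The 75th percentile that was subtracted was a signal of 432.7 to 574.6 in WT liver and 1648.9 to 2708.1 in WT WAT. The differences therefore hold relative to that scale, and the smaller ones depend on it most. Elovl2 had the widest difference of the 10, at 4.47 ± 0.35 (SD, n = 5) in WT liver and -4.96 ± 1.84 (SD, n = 5) in WT WAT, a log2 difference of 9.43 (SE 0.61, adjusted p = 1.08e-10) or 688-fold. The Elovl2 spot was well above background on 4 of 5 WT WAT arrays. Without replicate 3, the array on which it was not, the difference was 8.70, and it was 7.87 with normexp correction. Elovl3 followed with 6.32 (SE 0.52, 79.7-fold), then Fads2 with 6.14 (SE 0.16, 70.6-fold). The intervals of Elovl3 (5.23 to 7.40) and Fads2 (5.80 to 6.49) overlapped, so their order is not settled.

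A second step held Fads1 at 4.30 (19.7-fold), Elovl6 at 4.24 (19.0-fold, 4 WT WAT arrays) and Elovl5 at 4.05 (16.6-fold), with intervals of 3.94 to 4.66, 3.52 to 4.97 and 3.63 to 4.47 that all overlapped. The Elovl5 difference was 3.94 without WT WAT replicate 1 and 2.97 with quantile normalization. Scd1, which was bright in both tissues, had 8.21 ± 0.34 in WT liver and 6.14 ± 0.39 in WT WAT (SD, n = 5), a difference of 2.06 (SE 0.28, 4.18-fold, adjusted p = 2.26e-06). With quantile normalization over the 20 arrays the Scd1 difference was 0.45 (adjusted p = 0.134), so its call depends on the scaling. Elovl7 differed by 1.87 (SE 0.59, 3.67-fold, adjusted p = 0.00896) with overlapping groups, and Elovl1 by 1.27 (SE 0.16, 2.41-fold, adjusted p = 8.09e-07). Over the alternative settings the Elovl1 difference went down to 0.60 and that of Elovl7 to 1.56, both still past the threshold.

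Scd2 alone of the 10 was brighter in WAT. It was at 0.22 ± 0.64 in WT liver and at 3.97 ± 0.62 in WT WAT (SD, n = 5), with no overlap, a difference of -3.75 (SE 0.33, adjusted p = 9.34e-09), that is 13.5-fold brighter in WAT. Without WT WAT replicate 1 it was -4.03, and the other 9 genes also passed without that array. Elovl2, Elovl3, Fads1, Fads2, Elovl5 and Elovl6 were thus brighter in WT liver by 16.6-fold to 688-fold as fitted, and Scd2 was brighter in WT WAT.

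**Figure D4:**
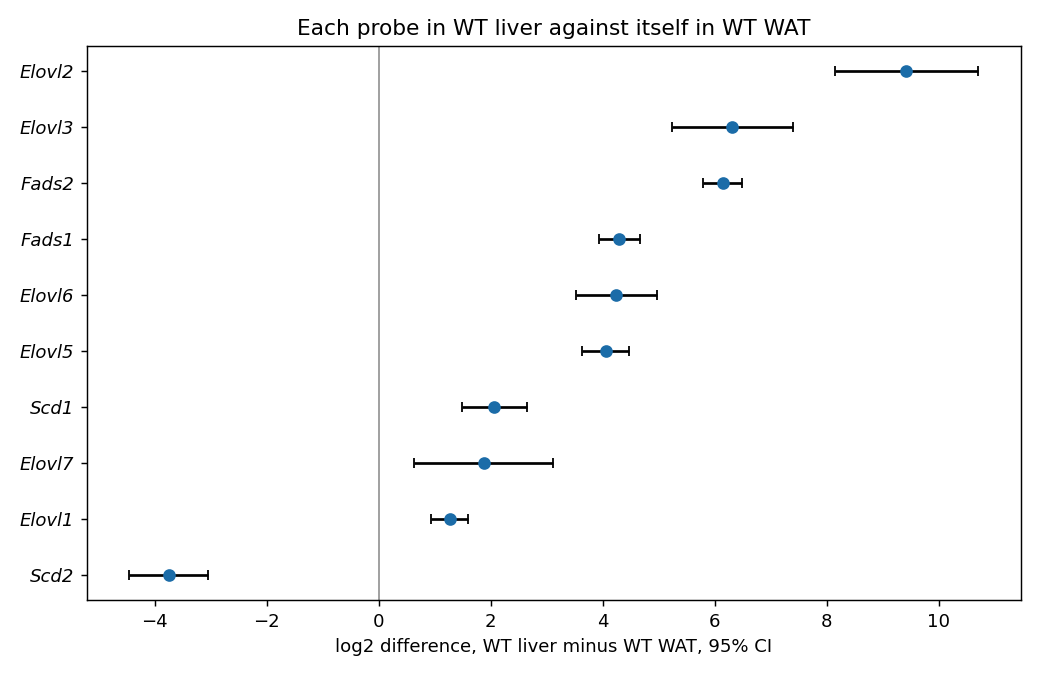
Log2 difference of each probe between WT liver and WT WAT (x axis) with its 95% confidence interval, genes ordered by the difference (y axis), 5 arrays a group except 4 WT WAT arrays for Elovl6. Elovl2 stands at 9.43 and Scd2, at -3.75, is the only gene to the left of 0.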

How the data were processed

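Total RNA (Qiagen RNeasy) was labelled with Cy3 and hybridised to Agilent mouse arrays with 1 colour per array. The deposited intensity values are the processed signals that the authors obtained with Feature Extraction 9.5.3.1 (9.5 in the submitters' processing notes), detrended within each array and not normalized between arrays; the deposited series table held the same values (100% equal). Coordinates are those of build mm7 in the file headers. From these, log2 signal minus the array's 75th percentile over 43379 non-control spots was computed here, outlier spots were left out, and spots of a probe were averaged. 22951 of 41174 probes were named by accession through RefSeq, the rest by the file's name. A probe was tested where it was well above background (13 background SD) on at least 3 of 5 arrays of 1 group. CD44KO and WT were compared within each tissue with limma 3.58.1 in R 4.3.3 (lmFit, eBayes, Benjamini-Hochberg over all probes tested, threshold 0.05), and by a 2-sided exact permutation test over arrays (252 relabellings for 5 against 5 arrays, smallest p 0.0079). For Elovl6 in WAT, with 4 WT arrays, there were 126 relabellings. The interaction and the WT liver to WT WAT contrast came from 1 fit of all 20 arrays. The methods name no test for the arrays. Precision rests on the number of arrays. The study gives 5 mice per group. A "well above background" flag and a mean ± SD are per array and per group of 5.

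All 10 genes are named. Of the other genes, those past the threshold (at most the 6 largest in each tissue) and Srebf1, Mlxipl, Nr1h3 and Fasn are named. Brown adipocyte markers are named for WAT as well. Genes and lists, markers included, were chosen with earlier results of these data known; motifs were chosen with the gene values known. Alternatives were normexp background correction (offset 50), quantile normalization, other filters on dim probes, slide and replicate blocks, a fit of all 20 arrays, outlier spots kept, the mean of a gene's probes, and leaving out each array. Scripts were tested on simulated data. The genes whose pattern was most like that of Elovl7, and 1 further motif, are not reported here.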

Additional observations from a re-analysis of the deposited data

Results flagged for a closer look

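Of 40 groups of arrays, 4 groups for each of the 10 genes, 2 held a value far from the other arrays of its group, where chance gives about 1 in 20 groups. Elovl7 on the CD44KO WAT array of replicate 2 was at -6.01, with the nearest of the other 4 arrays at -5.30. Scd2 on the WT WAT array of replicate 1 was at 2.87, with the nearest at 4.12, and this is the array that had 89.5% of its spots well above background.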

How the results depend on the processing

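In liver the number of the 10 genes past the threshold was 1 as reported, 0 with normexp background correction, and 2 (Elovl1 and Elovl7) with quantile normalization or with the slide as a block. With well above background required on all 10 arrays it was 1, Elovl1, of 9 genes tested. Elovl7 did not meet that filter and was not tested there. Leaving out each array in turn gave 0 (without WT replicate 2) to 3 genes, and Elovl7 passed in 9 of 10 of these fits. The 3358 liver probes past the threshold became 641 with normexp correction, 1027 with no filter on dim probes and 638 in the fit of all 20 arrays, and 924 (without WT replicate 2) to 4695 (without CD44KO replicate 3) when an array was left out. In WAT no setting called any of the 10 genes, of which only 8 were tested with well above background required on all 10 arrays. The 11 probes called became 35 with normexp correction, 3 with no filter, 4 with the slide as a block, 1647 in the fit of all 20 arrays, and 3 to 37 (the latter without WT replicate 1) when an array was left out. 1 of the 10 genes passed the interaction test with normexp correction, and 0 to 1 when an array was left out. The number that differed between WT liver and WT WAT was 10 in every fit that left out an array, and 9 with quantile normalization. Changes that turned sign were those in WAT of Elovl1 (-0.12), Scap (-0.072) and Nr1h3 (-0.010) with quantile normalization and of Elovl1 without WT replicate 1 (-0.029) or CD44KO replicate 2 (-0.054), in a range of -0.054 to 0.18 over the fits that left out an array. Normexp correction moved the median log2 change of all probes to 0.14 in liver and -0.13 in WAT, and quantile normalization to 0.11 in WAT; the causes of these shifts were not tested. Of 1134 comparisons of single genes with the reported value, 1078 kept their direction and side of the threshold, 41 lost and 10 gained the call and 5 turned sign. Where a spot was near background, as for Elovl7 in CD44KO liver, signal over background limits the size of the change.

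The labels do not say whether liver and WAT arrays of the same number came from the same mouse. Deviations of such arrays correlated at -0.20 to 0.14 in WT and at -0.06 to 0.11 in CD44KO. A low r does not exclude shared mice, so the pairing is not settled. WT and CD44KO arrays came from different mice, and those of the same number correlated at -0.04 to 0.42 in liver and -0.21 to 0.09 in WAT. With a replicate block, the probes past the threshold were 1329 in liver and 3 in WAT, and the 10 genes gave 1 call in liver, 0 in WAT, 0 in the interaction and 10 between the tissues.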
